A study of Homo sapiens with 4 samples.

Results

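The small nucleolar RNA (snoRNA) host genes were followed in SK-N-BE(2) neuroblastoma cells after SAPCD2 knockdown. They were taken as every gene whose GENCODE symbol is SNHG followed by a number, together with GAS5, ZFAS1, EPB41L4A-AS1 and DANCR. The annotation held 32 such genes, 31 of them were rows of the table of 64252 genes, 30 had a count in at least 1 library, and 27 of the 18779 genes that had enough counts for a test were host genes. SNHG4 was not analysed here.

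SK-N-BE(2) is an established human neuroblastoma line with MYCN amplification. RNA was sequenced from cells carrying a scrambled shRNA (sh-Scb) and from cells carrying an shRNA against SAPCD2 (sh-SAPCD2), with 2 libraries per group and 4 in all. Both groups were puromycin-selected stable cells made with lentivirus according to the study's methods, while the labels call the cells transfected. The study's methods list 2 SAPCD2 shRNAs, and the labels do not say which was used or whether both knockdown libraries carry the same one. An effect of a hairpin and an effect of less SAPCD2 therefore cannot be told apart. Nothing states that the 2 libraries of a group came from separate cultures, so the p-values measure the spread between these libraries, which may be technical. The libraries were made with a poly(A) kit that does not mark the strand, and in bulk RNA fewer cells that express a gene and less RNA per cell cannot be told apart.

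A snoRNA host gene is transcribed by RNA polymerase II, and its introns carry the snoRNAs, which are trimmed out of the spliced introns. Many box C/D snoRNAs (SNORD genes) guide the methylation of ribosomal RNA, and many H/ACA snoRNAs (SNORA genes) guide pseudouridylation. The scaRNAs (SCARNA genes) guide the same changes on spliceosomal RNAs in Cajal bodies. The spliced host RNA is often short-lived, because translation of small reading frames in it triggers nonsense-mediated decay, and several hosts start with a terminal oligopyrimidine (TOP) tract, a C followed by a run of C and T, as ribosomal protein mRNAs do. The level of a host RNA is therefore set by transcription, translation and decay together, and none of these was measured here.

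The start sequences are shown because a TOP tract is a feature that several hosts, not all, share with the ribosomal protein genes. Each window runs from 5 bases before the annotated start, on the gene's own strand in hg38, and the capitals mark the longest run of C and T that begins with C within 5 bases of the start. The windows of 6 hosts at the GENCODE start are these.
GAS5, chr1:173867965-173867994, minus strand: actgtCTTTTCgaggtaggagtcgactcct
SNHG29, chr17:16439032-16439061, plus strand: gtgaCCTTTTCattcccgttgttatggagg
ZFAS1, chr20:49278637-49278666, plus strand: tcgttCTTTCgcgtctgcggtgcccggagt
SNHG7, chr9:136728160-136728189, minus strand: tcgtCCTCTgcgtgcgccggaggctgccgt
DANCR, chr4:52712496-52712525, plus strand: tcgcaggCCTCTTTgtcagctggagttgcg
SNHG20, chr17:77086711-77086740, plus strand: acgCCTgtagttttcgcctgtccaggacgc
RefSeq (GRCh38.p14) places several starts elsewhere, and the windows of 5 hosts at the RefSeq start are these.
SNHG5, chr6:85678709-85678738, minus strand: tcggtCTTTTacgtcggccttcgcgagcgt
SNHG32, chr6:31834911-31834940, plus strand: tagttCTTTTTgcgaagtgggctcgtgggt
SNHG19, chr16:2155334-2155363, minus strand: cctgtCTTTTCggggtcgagtccgaggggg
SNHG16, chr17:76557759-76557788, plus strand: gtctcgcgttCTTTTCgaggtcggccgcgt
SNHG1, chr11:62855861-62855890, minus strand: tcgttCTCatttttctactgctcgtggtaa

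A run of at least 5 bases was found at the GENCODE start of 9 of the 27 tested hosts (33.3%), against 3677 of 17467 tested genes with an annotated start (21.1%) and 68 of 79 cytosolic ribosomal protein genes (86.1%). At RefSeq starts it was found in 13 of 29 entries whose symbol meets the same rule, against 21.1% of 35116 promoters. The run of GAS5 begins at the GENCODE start itself, and those of SNHG19 and SNHG32 begin at the RefSeq start itself. The run of SNHG16 begins 5 bases after the RefSeq start and lies wholly before the GENCODE start. At the RefSeq start the longest run was 1 base for GAS5 and 0 for SNHG29. At the GENCODE start it was 1 base for SNHG19, 2 for SNHG32 and 2 for SNHG5. ZFAS1, SNHG7 and DANCR had a run of at least 5 bases at both. SNHG1 has a run of 3 bases at the RefSeq start and SNHG20 a run of 3 bases at the GENCODE start. The E-box CACGTG, a motif that MYC family proteins bind and that reads the same on both strands, was found in the 300 bases from 250 before to 50 after the GENCODE start of 5 tested hosts (18.5%) and of 9.1% of all tested genes. Those 5 hosts are GAS5, SNHG7, SNHG9, SNHG25 and SNHG30. At RefSeq starts the same motif was found in 2 of the 29 entries (6.9%) and in 7.26% of all promoters, so the hosts were not above the other genes there. A match describes the letters only, and occupancy was not measured.

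RefSeq places 148 snoRNA and scaRNA genes inside 30 of the 32 hosts, of which 121 are SNORD, 23 SNORA and 4 SCARNA genes. SNHG14 alone holds 83 SNORD genes, GAS5 holds 10 SNORD genes and 1 SNORA gene, and SNHG1 holds 8 SNORD genes. Example snoRNAs that the changed transcripts carry are given here, 1 for each of 5 hosts whose RNA differed between the groups. They are written on the strand of the host from RefSeq coordinates, with the C box (TGATGA) and D box (CTGA) of the box C/D RNAs and the ACA of the H/ACA RNA in capitals.
SNORD60 in SNHG19, chr16:2155023-2155105: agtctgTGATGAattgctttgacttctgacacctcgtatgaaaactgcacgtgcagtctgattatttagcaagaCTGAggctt
SNORD7 in SNHG30, chr17:35573657-35573753: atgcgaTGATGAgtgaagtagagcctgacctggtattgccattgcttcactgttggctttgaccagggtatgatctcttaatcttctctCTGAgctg
SNORA26 in DANCR, chr4:52713249-52713370: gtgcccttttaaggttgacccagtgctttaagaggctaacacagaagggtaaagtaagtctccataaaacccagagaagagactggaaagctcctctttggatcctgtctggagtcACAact
SNORD29 in SNHG1, chr11:62853904-62853968: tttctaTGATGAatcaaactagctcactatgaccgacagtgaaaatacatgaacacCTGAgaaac
SNORD1B in SNHG16, chr17:76561108-76561193: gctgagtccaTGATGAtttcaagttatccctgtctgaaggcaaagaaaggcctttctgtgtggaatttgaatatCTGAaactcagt

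The table held 25347900 to 31850997 counts per library, and 3 counts correspond to between 0.0955 and 0.119 CPM (the count scaled by library size, here with TMM factors), as counting error alone. SAPCD2 was at 83.6 and 82.2 CPM with sh-Scb and at 35.4 and 52.5 CPM with sh-SAPCD2, that is 42.7% and 63.3% of the control mean (log2 fold change -0.91, edgeR quasi-likelihood adjusted p = 0.0206). All 8 adrenergic neuroblastoma markers were detected. MYCN, the amplified oncogene, was at 3235 and 3178 CPM in the controls and at 5904 and 7091 CPM after knockdown (log2 fold change 1.02). Of the 6 markers of other cell types, PECAM1 and ALB stayed below 1 CPM, COL1A1, EPCAM and PTPRC lay between 2.13 and 12.4 CPM, and the matrix gene LUM lay between 134.4 and 185.2 CPM in all 4 libraries. Whether LUM RNA came from the line itself or from other cells was not tested, nor was the part of MYCN or LUM in the host gene results.

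Per kilobase of annotated exon, which allows genes to be compared, the tested host RNAs spanned mean levels from 0.158 (SNHG28) to 70.2 CPM per kb (GAS5). The length used is the union of all annotated exons, so hosts with many long isoforms are placed low. GAS5, which takes its name from growth arrest, was followed by SNHG1 (54.6), SNHG16 (51.5), SNHG29 (47.9), SNHG6 (41.6) and SNHG19 (24.9). In the control libraries GAS5 and SNHG1 were level at 63.6 CPM per kb each, ahead of SNHG16 at 59.3, whereas SNHG29 and SNHG6 did not separate at 39.6 and 39.9. After knockdown GAS5 led at 76.8 CPM per kb, SNHG29 stood at 56.2, and SNHG1 and SNHG16 stood at 45.6 and 43.7. The host RNAs together took 0.224% and 0.215% of all counts in the controls and 0.219% and 0.271% after knockdown, so that their summed level was outside the control range only in replicate 2.

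**Figure D1:**
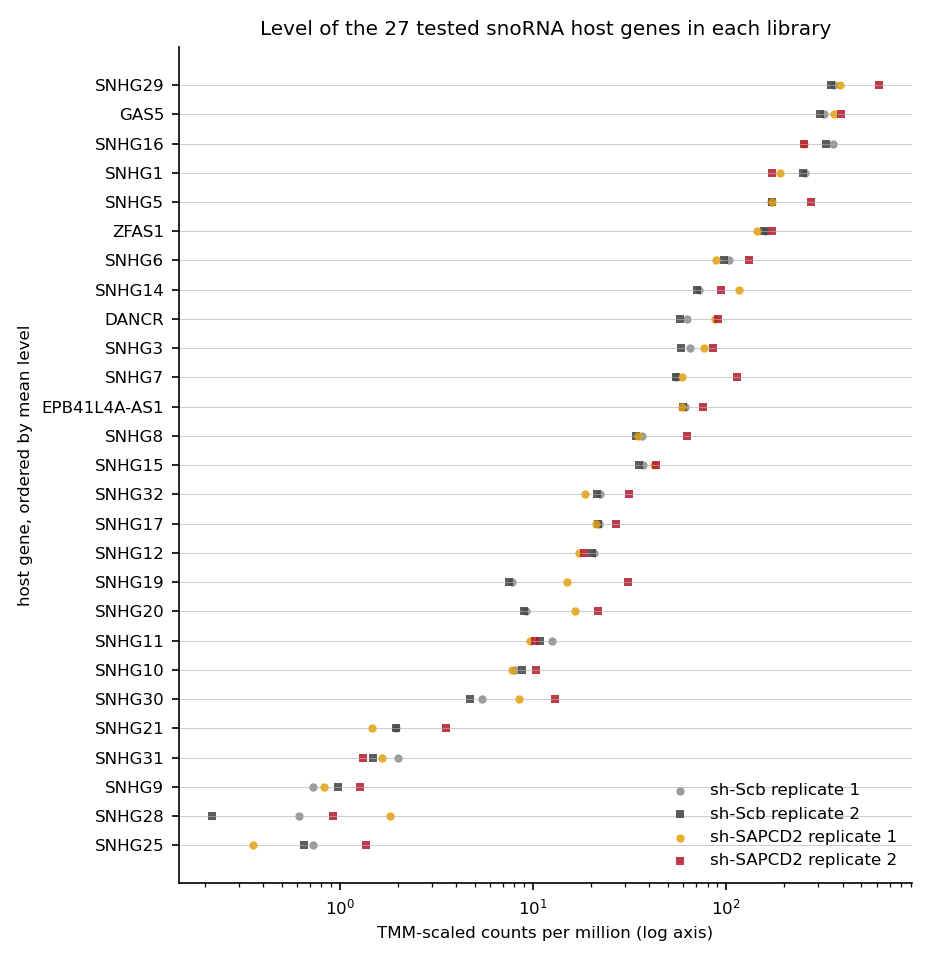
Level of the 27 tested host genes in each of the 4 libraries, in TMM-scaled CPM on a log axis, with each point 1 library. The red squares (sh-SAPCD2 replicate 2) lie furthest right for most hosts, such as SNHG29 at 615.1 CPM, while SNHG16 and SNHG1 lie left of both control points in both knockdown libraries.

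Of the 27 tested hosts, 5 were higher after SAPCD2 knockdown (18.5%) at an adjusted p under 0.05, compared with 12.4% of all tested genes. A further 2 were lower (7.41%), compared with 12.5% of all tested genes. The fitted log2 fold change had a median of 0.31 over the hosts and 0.02 over all tested genes, and it was above 0 for 22 of the 27. Genes with at least 10 CPM, a level that many hosts exceed, were higher in 17.2% and lower in 16% of 10435 cases. With the additional requirement of an absolute log2 fold change over 1, 3 hosts were differentially expressed, all higher (SNHG19, SNHG20 and SNHG30), where 4.69% of all tested genes were higher and 5.15% lower. By edgeR 0 hosts were lower under this rule, also at an unadjusted p under 0.05 and by DESeq2. In sh-SAPCD2 replicate 1, SNHG19, SNHG20 and SNHG30 stood at 195.5%, 181.4% and 167.9% of the control mean, each a log2 change under 1. The limit on the fold change was therefore reached only with replicate 2.

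SNHG19 had the largest change among the hosts that passed. Its RNA (ENSG00000260260, chr16:2154792-2155405, minus strand), which carries SNORD60, was at 7.75 and 7.49 CPM in the controls and at 14.9 and 31.1 CPM after knockdown. Both knockdown libraries lay above both controls, and they differed from each other more than the controls did. The fold was 3.02 (log2 fold change 1.60, SE 0.344, adjusted p = 0.0219). Without sh-SAPCD2 replicate 2 the log2 fold change was 0.97, in a fit whose spread comes from the control libraries alone. TRAF7, a ubiquitin ligase gene that starts 377 bases away on the other strand, was at 94.9, 95.9, 84.6 and 109.1 CPM in the same order of libraries (log2 fold change 0.02, adjusted p = 0.925).

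SNHG20 carries SCARNA16, a guide for spliceosomal RNA. The host (ENSG00000234912, chr17:77086716-77099902, plus strand) was at 9.19 and 9.01 CPM in the controls and at 16.5 and 21.8 CPM after knockdown, with no overlap between the groups. The log2 fold change was 1.08 (SE 0.187, adjusted p = 0.0118), the smallest adjusted p among the hosts. SEC14L1, which overlaps SNHG20 on the same strand and whose shared reads the counting could split, was at 78.6, 79.7, 81.2 and 86.2 CPM (log2 fold change 0.08, adjusted p = 0.6).

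SNHG30 carries SNORD7 and was at 5.43 and 4.69 CPM in the controls and at 8.49 and 13.0 CPM after knockdown (ENSG00000267321, chr17:35568050-35574900, plus strand). Both knockdown libraries were above both controls, and the log2 fold change was 1.09 (SE 0.254, adjusted p = 0.0275).

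DANCR, a long noncoding RNA named for its block of differentiation and the host of SNORA26, was higher by less but with close replicates. It was at 62.3 and 57.8 CPM in the controls and at 87.5 and 90.2 CPM after knockdown (ENSG00000226950, chr4:52712325-52723623, plus strand). The knockdown libraries stood at 145.8% and 150.2% of the control mean (log2 fold change 0.57, SE 0.107, adjusted p = 0.0153). ERVMER34-1, on the other strand, was at 3.55, 2.98, 1.7 and 1.46 CPM (log2 fold change -1.05, adjusted p = 0.0352), so it moved in the other direction.

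SNHG14 is the very long transcript of the imprinted Prader-Willi and Angelman region and runs antisense to UBE3A, the ubiquitin ligase gene lost in Angelman syndrome. It was at 72.0 and 70.5 CPM in the controls and at 116.7 and 93.6 CPM after knockdown (ENSG00000224078, chr15:24978583-25420336, plus strand). This was the only host that passed with replicate 1 above replicate 2 among the 5 that were higher (log2 fold change 0.56, SE 0.135, adjusted p = 0.0303). UBE3A itself was at 163.5, 166.3, 180.8 and 149.9 CPM (log2 fold change 0.00, adjusted p = 0.988). SNRPN, a spliceosomal protein gene that overlaps SNHG14 on the same strand, fell from 91.8 and 91.3 CPM to 29.5 and 37.5 CPM (log2 fold change -1.45, adjusted p = 0.00322). Reads from exons shared by SNHG14 and its same-strand or antisense neighbours cannot be told apart in these counts.

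SNHG1, which carries 8 box C/D snoRNAs, was lower after knockdown. It was at 254.7 and 250.8 CPM in the controls and at 189.8 and 173.1 CPM after knockdown (ENSG00000255717, chr11:62851978-62855953, minus strand). The knockdown libraries stood at 75.1% and 68.5% of the control mean (log2 fold change -0.48, SE 0.0996, adjusted p = 0.0199).

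SNHG16, the host of the SNORD1 snoRNAs, was lower to a similar degree. It was at 355.1 and 329.4 CPM in the controls and at 252.3 and 252.6 CPM after knockdown (ENSG00000163597, chr17:76557727-76670985, plus strand). The groups did not overlap, and the knockdown libraries were at 73.7% and 73.8% of the control mean (log2 fold change -0.44, SE 0.0955, adjusted p = 0.0226). ST6GALNAC2, a sialyltransferase gene on the other strand, was at 5.1, 3.05, 3.32 and 3.6 CPM (adjusted p = 0.596). The noncoding gene ENSG00000267546, which starts 123 bases away on the other strand and does not overlap SNHG16, was at 8.15, 3.6, 9.56 and 6.94 CPM (adjusted p = 0.4).

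Of these 7 hosts, DANCR, SNHG1, SNHG14 and SNHG16 did not pass when either control library was left out, with adjusted p between 0.168 and 0.41 and the same direction. SNHG30 did not pass without sh-Scb replicate 2 (adjusted p = 0.0517).

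**Figure D2:**
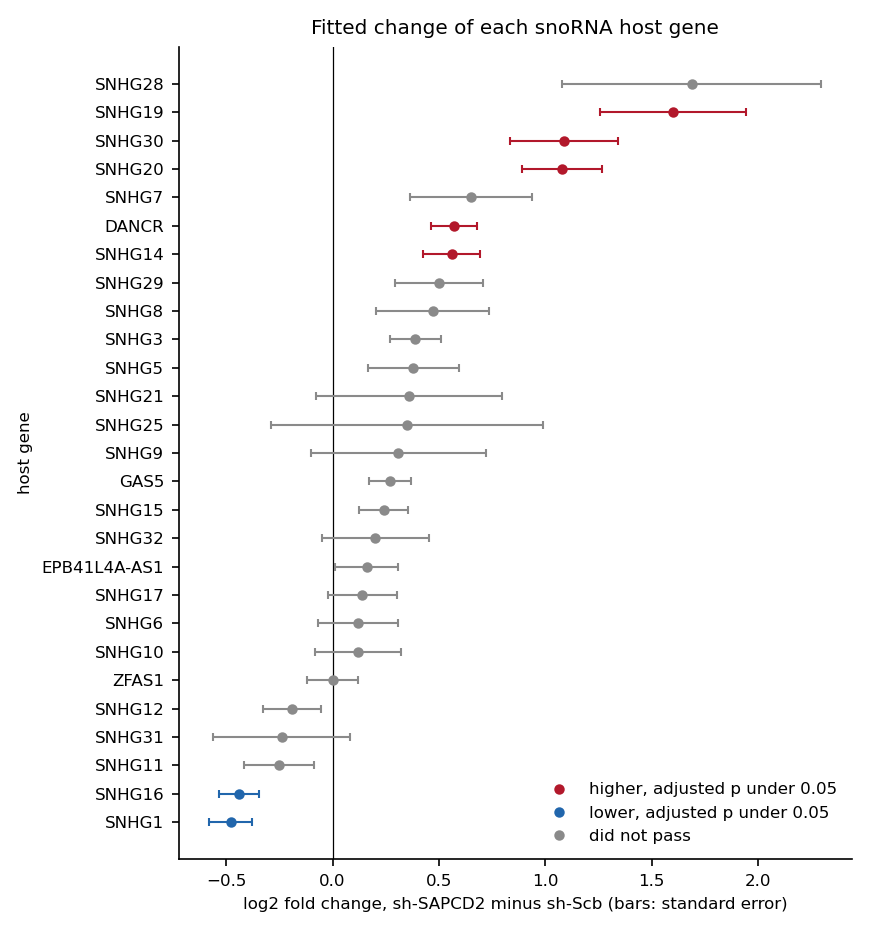
Fitted log2 fold change of the 27 tested host genes, sh-SAPCD2 minus sh-Scb, with bars of 1 standard error. The 5 red hosts lie between 0.56 and 1.60 and the 2 blue hosts at -0.48 and -0.44, while SNHG28 at 1.69 has a standard error of 0.609 and did not pass.

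Among the most abundant hosts, GAS5, SNHG29 and SNHG6 did not pass. GAS5 was at 319.5 and 307.5 CPM in the controls and at 363.1 and 394.7 CPM after knockdown, so both knockdown libraries lay above both controls, with a log2 fold change of 0.27 (SE 0.0974, adjusted p = 0.0896). SNHG29, the host of SNORD49A, SNORD49B and SNORD65, was at 361.3 and 347.4 CPM in the controls and at 390.2 and 615.1 CPM after knockdown (log2 fold change 0.50, SE 0.208, adjusted p = 0.127). Only replicate 2 stood well clear of its controls, although neither knockdown library fell within their range. SNHG6, a box C/D host, was at 103.7, 97.8, 88.4 and 130.9 CPM (log2 fold change 0.12, SE 0.189, adjusted p = 0.668), so its groups overlapped.

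Other box C/D hosts did not pass either. SNHG5, which carries SNORD50A and SNORD50B, was at 170.8 and 173.0 CPM in the controls and at 171.7 and 275.3 CPM after knockdown (log2 fold change 0.38, adjusted p = 0.241). SNHG32, in the major histocompatibility region, had a log2 fold change of 0.20 (adjusted p = 0.601). ZFAS1, the antisense partner of the ZNFX1 promoter and host of the SNORD12 group, was at 158.7, 156.7, 143.7 and 172.0 CPM (log2 fold change 0.00, adjusted p = 0.996). SNHG25 and SNHG12, which hold both kinds of snoRNA, had log2 fold changes of 0.35 (adjusted p = 0.724) and -0.19 (adjusted p = 0.335). Of these, SNHG5 and SNHG32 stood at 99.9% and 84.7% of the control mean in replicate 1 of the knockdown and at 160.2% and 144.1% in replicate 2.

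Among the H/ACA hosts, SNHG7 was at 55.2 and 54.7 CPM in the controls and at 59.0 and 113.4 CPM after knockdown (log2 fold change 0.65, adjusted p = 0.148). SNHG3, the host of the SNORA73 pair, had a log2 fold change of 0.39 (adjusted p = 0.0627), and RCC1, a chromatin-bound exchange factor gene whose annotation overlaps SNHG3 on the same strand, fell from 107.2 and 104.0 CPM to 71.6 and 79.3 CPM (log2 fold change -0.48, adjusted p = 0.0244). Reads in exons that SNHG3 and RCC1 share are uncertain. SNHG8 had a log2 fold change of 0.47 (adjusted p = 0.239), SNHG9 of 0.31 (adjusted p = 0.612), SNHG15 of 0.24 (adjusted p = 0.187) and EPB41L4A-AS1 of 0.16 (adjusted p = 0.466). SNHG17 stood at 0.14 (adjusted p = 0.568), SNHG31 at -0.24 (adjusted p = 0.625) and SNHG11 at -0.25 (adjusted p = 0.306). The scaRNA hosts SNHG10 and SNHG21 stood at 0.12 (adjusted p = 0.704) and 0.36 (adjusted p = 0.575), and SNHG28, which holds none of these RNA genes in RefSeq, at 1.69 (adjusted p = 0.0915) with no library above 1.82 CPM.

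By the kind of RNA carried, the medians were close. The 10 hosts with SNORD genes alone had a median log2 fold change of 0.29 with 3 higher and 2 lower, and the 10 with SNORA genes alone had a median of 0.27 with 1 higher and 0 lower by the same edgeR test. Among the latter, 0 were lower at an unadjusted p under 0.05 and 0 by DESeq2. The 9 hosts with a pyrimidine run at the GENCODE start had a median of 0.35 with 1 higher, and the 18 without had a median of 0.27 with 4 higher and 2 lower. These are descriptions of small groups, and no difference between them was tested.

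Below the filter, SNHG18 had 3 and 2 counts in the controls and 0 and 0 after knockdown, SNHG22 had 3, 10, 5 and 9 counts, and SNHG26 had 5 and 8 counts in the controls and 1 and 2 after knockdown. SNHG27 was listed at 0 in every library, which allows up to 0.119 CPM in the shallowest library as counting error alone. None of these 4 was tested.

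The 2 knockdown libraries differed from each other in these genes. In replicate 2, 23 of the 27 hosts were higher than in replicate 1 (85.2%), against 50.5% of all tested genes. In the controls 4 of the 27 were (14.8%), against 50.6% of all tested genes, with a median host difference of -0.05 on the log2 scale. The median difference between the knockdown libraries was 0.36 on the log2 scale for the hosts and 0.01 for all tested genes. Against the control mean, 11 hosts were above it in replicate 1 and 22 in replicate 2, with a median host level of 97.7% in replicate 1 and 137.8% in replicate 2. Of all tested genes, 49.6% and 50.2% were above it in the same libraries, with median levels of 99.7% and 100.3%. The hosts that stood at or below the control mean in replicate 1 and above it in replicate 2 numbered 11, and 0 showed the opposite.

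**Figure D3:**
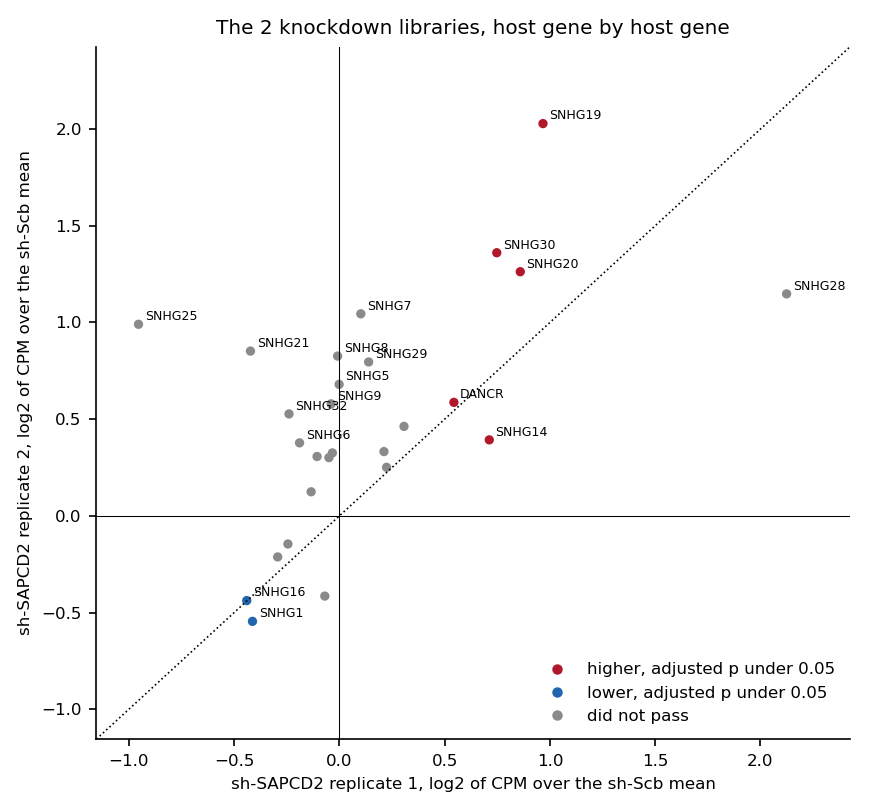
Each of the 27 tested hosts in the 2 knockdown libraries, as the log2 of CPM over the sh-Scb mean, with replicate 1 on the horizontal and replicate 2 on the vertical axis and a dotted line where both are equal. Most points lie above the line, and SNHG19, SNHG20, SNHG30, DANCR and SNHG14 are right of and above 0 on both axes.

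The cytosolic ribosomal protein genes, whose mRNAs are the classic TOP mRNAs, differed between the same 2 libraries. In replicate 2 of the knockdown 73 of 79 were higher than in replicate 1 (92.4%), with a median difference of 0.39 on the log2 scale, and they took 8.08% of all counts against 6.43% in replicate 1 and 6.33% and 6.18% in the controls. Without sh-SAPCD2 replicate 2 the median log2 fold change of the hosts was -0.03, in place of 0.31, with 8 hosts higher and 3 lower, where 17.9% of all genes tested in that fit were higher and 17.7% lower. Without sh-SAPCD2 replicate 1 it was 0.46, with 16 higher and 2 lower, where 22.1% of all genes were higher and 20.2% lower. In those fits the spread comes from the 2 control libraries alone. SAPCD2 stood at 42.7% of control in replicate 1 and 63.3% in replicate 2, and the part of this difference in the host gene levels was not tested. Whether both knockdown libraries carry the same shRNA is not stated, so a hairpin difference and a difference between replicates cannot be told apart.

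**Figure D4:**
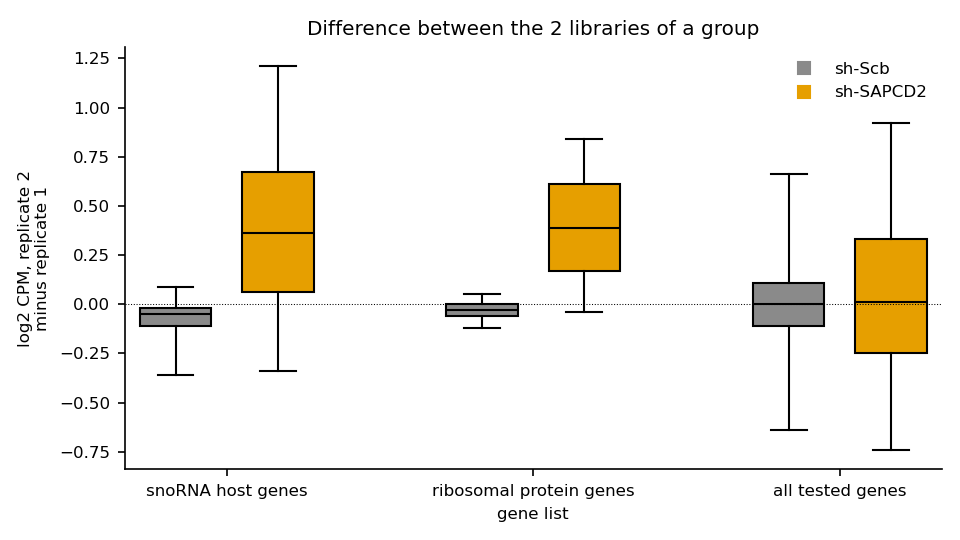
Difference between replicate 2 and replicate 1 of each group, in log2 CPM, for the snoRNA host genes, the cytosolic ribosomal protein genes and all tested genes, with the line at the median, boxes from the 25th to the 75th percentile and whiskers from the 5th to the 95th. The sh-SAPCD2 medians of the hosts (0.36) and of the ribosomal protein genes (0.39) lie above 0, while that of all tested genes is 0.01.

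Both knockdown libraries lay above both controls for 11 hosts, or 11 of 27, where 33.5% of all tested genes did so, and below both controls for 4 hosts, where 33.4% of all tested genes did so. The groups overlapped for 12 hosts. The 11 were the 5 that passed together with GAS5, SNHG3, SNHG7, SNHG15, SNHG28 and SNHG29, and the 4 were SNHG1, SNHG11, SNHG12 and SNHG16.

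The snoRNAs themselves were hardly seen, as a poly(A) library is not made to hold them. Of the snoRNA genes inside hosts, 140 have a row in the table. Of these, 20 had more than 3 counts in any library and 59 were at 0 in every library. A further 30 were at exactly 1 count in every library, and whether those values are counts of reads is not known. The largest count was 46. SNORA26 in DANCR had 20 and 22 counts in the controls and 32 and 36 after knockdown. SNORD60 in SNHG19 had 16 and 10 counts in the controls and 10 and 20 after knockdown, and SNORD104 in SNHG25 had 11, 10, 13 and 46. Mature snoRNAs and unspliced host RNA cannot be told apart in these counts.

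Of 23 proteins that bind and assemble snoRNAs, the genes of 1 were higher (4.35%) and of 2 lower (8.7%), with a median log2 fold change of 0.16. Beside the 12.4% and 12.5% of all tested genes this is a difference of few genes, and DESeq2 gave 3 higher and 2 lower. TGS1, which trimethylates the cap of snRNAs and snoRNAs, fell from 54.8 and 55.0 CPM to 35.1 and 28.7 CPM (log2 fold change -0.79, SE 0.141, adjusted p = 0.013). DKC1, the pseudouridine synthase of H/ACA particles, fell from 185.7 and 177.1 CPM to 140.6 and 140.0 CPM (log2 fold change -0.37, adjusted p = 0.0362), whereas GAR1, a subunit of the same particle, rose from 36.9 and 35.4 CPM to 49.4 and 51.2 CPM (log2 fold change 0.48, adjusted p = 0.0305). NOP10, also of that particle, did not pass (log2 fold change 0.52, adjusted p = 0.0537). FBL, the methyltransferase of box C/D particles, was at 114.2, 119.5, 106.6 and 133.6 CPM (log2 fold change 0.04, adjusted p = 0.852).

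Of 25 nonsense-mediated decay factors, 2 were higher (8%) and 5 lower (20%), beside 12.4% and 12.5% of all tested genes, which is a difference of few genes. Their median log2 fold change was -0.13. CASC3, a core subunit of the exon junction complex, fell from 189.9 and 179.2 CPM to 125.1 and 120.0 CPM (log2 fold change -0.59, SE 0.0981, adjusted p = 0.0104), and RNPS1, which joins that complex, had a log2 fold change of -0.44 (adjusted p = 0.0265). SMG9, a partner of the SMG1 kinase, had a log2 fold change of -0.72 (adjusted p = 0.026), while the helicase gene DHX34 rose by 0.74 (adjusted p = 0.0229). UPF1, the central helicase of the pathway, was at 143.2, 139.8, 148.5 and 175.7 CPM (log2 fold change 0.20, adjusted p = 0.263).

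Of 15 genes that control the translation of TOP mRNAs, 0 were higher and 3 lower (20%, beside 12.5% of all tested genes) by edgeR, and 0 were higher at an unadjusted p under 0.05 or by DESeq2. EIF4EBP2, a repressor of cap-dependent translation, fell from 246.6 and 237.7 CPM to 126.9 and 110.1 CPM (log2 fold change -1.03, SE 0.111, adjusted p = 0.00376), and EIF4EBP1 had a log2 fold change of -0.79 (adjusted p = 0.025). MTOR, the kinase that acts on both, had a log2 fold change of -0.44 (adjusted p = 0.0311). LARP1, which binds the TOP tract and cap, was at 561.2, 547.5, 510.7 and 490.9 CPM (log2 fold change -0.15, adjusted p = 0.278), and TIAL1 had a log2 fold change of -0.28 (adjusted p = 0.104).

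The 79 cytosolic ribosomal protein genes had a median log2 fold change of 0.27 with 1 higher and 0 lower by edgeR. At an unadjusted p under 0.05, 23 were higher and 0 lower, and DESeq2 gave 16 higher and 0 lower. The gene that passed was RPS9, counted at 9.16 and 14.7 CPM in the controls and 20.6 and 32.0 CPM after knockdown (log2 fold change 1.14, adjusted p = 0.0383), a level below those of the other ribosomal protein genes named here. RPL18 was at 280.0, 270.1, 346.5 and 541.3 CPM (log2 fold change 0.69, adjusted p = 0.0552). The 28 ribosomal protein genes that also carry snoRNAs had a median log2 fold change of 0.24, with 0 higher and 0 lower by edgeR, 7 higher and 0 lower at an unadjusted p under 0.05, and 3 higher and 0 lower by DESeq2. RPL13, at 843.4, 810.2, 990.6 and 1632 CPM, was also higher in replicate 2 than in replicate 1 of the knockdown.

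Other protein-coding genes whose span holds a snoRNA or scaRNA gene on the same strand were counted separately. Whether that gene lies in an intron was not checked, and RCC1, which overlaps SNHG3, is among them. Of 142 tested, 21 were higher (14.8%) and 23 lower (16.2%), with a median log2 fold change of 0.06, and 37.3% of them were higher in replicate 2 than in replicate 1 of the knockdown. MAGED2 rose from 114.4 and 112.4 CPM to 221.1 and 224.1 CPM (log2 fold change 0.97, adjusted p = 0.00321), and the chromatin remodeller gene CHD3 rose by 0.90 (adjusted p = 0.00415). RBMX, a splicing factor gene, fell from 586.8 and 596.9 CPM to 321.6 and 278.3 CPM (log2 fold change -0.98, adjusted p = 0.00391), and SRCAP, which encodes a chromatin remodelling ATPase, had a log2 fold change of -1.02 (adjusted p = 0.00322). No difference between these lists was tested. Tested lncRNA genes as a class, 2347 in number, were higher in 4.6% and lower in 10.4% of cases, with a median log2 fold change of -0.16.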

How the data were processed

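The deposited table holds whole-number counts per Ensembl gene, which the authors made from paired-end poly(A) RNA-seq (TruSeq) aligned to hg38 with HISAT2 2.2.0, as named in the submitters' processing notes. The methods also name StringTie. The annotation release, the strand setting and the handling of reads that map to several places are not given in the sources used here. Genes were joined by Ensembl ID to GENCODE 44, and 17467 of the 18779 tested genes had a match with GC content and length. The host gene members and all gene lists were chosen with earlier results of these data known.

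The 4 libraries held 25347900 to 31850997 counts. The counts were filtered with filterByExpr (minimum count 10, minimum total 15), scaled by TMM and tested in edgeR 4.0.16 (quasi-likelihood test, R 4.3.3), and p-values were adjusted by Benjamini-Hochberg across the 18779 genes that entered the test. This is the adjusted p throughout, and a gene passed at an adjusted p under 0.05. The common biological coefficient of variation was 15.4%. Log2 fold changes are sh-SAPCD2 minus sh-Scb, and standard errors are the log2 fold change divided by the square root of F. The steps were tested on simulated data. The libraries of a group differed by more than counting noise, so none was a second deposit of another, which does not show that they are separate cultures. No set test was made. All hosts with a count were named, in full where they passed or were among the 6 with the highest CPM per kb, and lists by at most 4 genes with the smallest p plus FBL, DKC1, UPF1 and LARP1.

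Alternatives were DESeq2 1.42.0, other filters and scalings, a replicate block, a loess correction for GC content and length (span 0.3), each library left out, and, chosen after seeing the data, RefSeq starts. Sequences came from hg38 and from RefSeq tables of the same assembly, and 29 RefSeq entries had a symbol that meets the host gene rule, SNHG33 among them, which is not in GENCODE 44. Values of some genes that overlap host genes are not reported here.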

Additional observations from a re-analysis of the deposited data

How the results depend on the processing

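Under the alternatives that keep all 4 libraries, 21 to 27 of the tested hosts, or 24 of 24 where only genes with a mean of at least 1 CPM were tested, kept their direction and their side of the threshold, and SNHG20 passed under all 13 settings, the main one included. With no filter on low counts more genes shared the adjustment, and 2 hosts were higher and 0 lower by edgeR, since SNHG1, SNHG14, SNHG16, SNHG19 and SNHG30 had adjusted p between 0.0518 and 0.0887. The ribosomal protein genes then had 0 higher, the decay factors 0 higher and 1 lower, the other protein-coding hosts 11 higher and 12 lower, the snoRNP list 0 higher and 1 lower and the TOP translation list 1 lower, and SAPCD2 kept its log2 fold change of -0.91 with an adjusted p = 0.0749. DESeq2 size factors in edgeR gave 2 higher ribosomal protein genes and 2 higher snoRNP genes, and library totals gave 1 higher decay factor. DESeq2, which called 2667 genes higher and 2185 lower in all, gave 8 higher hosts, adding SNHG29, SNHG3 and SNHG7, with 16 higher ribosomal protein genes, 3 higher ribosomal protein hosts and 3 higher snoRNP genes. No scaling moved the median log2 fold change of all genes by more than 0.1. With the added limit of an absolute log2 fold change over 1, 3 hosts were higher and 0 lower in the main fit. Their lowest log2 fold changes over the 13 settings were 0.97 for SNHG19, 0.86 for SNHG20 and 0.75 for SNHG30, all under that limit.

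The GC and length correction gave 8 higher hosts, 29 higher ribosomal protein genes, 46 higher other hosts, 9 higher ribosomal protein hosts, 5 higher and 4 lower snoRNP genes, and 3 higher and 5 lower TOP translation genes, and SNHG25 and SNHG9 turned to -0.03 and -0.05. It called 3803 genes higher and 3603 lower among all genes, against 2326 and 2339 in the uncorrected fit, and the cause was not tested.

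The replicate numbers are shared between the groups, but nothing says that they pair the libraries, and the check gave no sign of pairing (r = -0.0188 between libraries of equal number after subtracting the group means). With the replicate block, 8 hosts were higher, adding SNHG29, SNHG7 and SNHG28, and there were 17 higher ribosomal protein genes, 1 higher decay factor, 2 higher ribosomal protein hosts, and 3 higher and 1 lower snoRNP genes. All genes also had more calls in that fit, with 15.2% higher and 14.4% lower. With the replicate block and the GC and length correction together, 9 hosts, 30 ribosomal protein genes, 4 decay factors, 43 other hosts, 7 ribosomal protein hosts, 5 snoRNP genes and 3 TOP translation genes were higher, and SNHG25 and SNHG9 stood at -0.17 and -0.06. Of all genes, 19.9% were then higher.

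Leaving out 1 library at a time gave 2 to 16 higher and 0 to 3 lower hosts, and the low ends came without a control library and the high ends without a knockdown library. Of all genes, 5.92% to 22.1% were higher in these fits. The lone library is then assumed to vary like the other group. The ranges were 1 to 67 higher and 0 to 8 lower ribosomal protein genes, 0 to 24 higher and 0 to 4 lower ribosomal protein hosts, 0 to 6 higher and 0 to 14 lower decay factors, 6 to 48 higher and 7 to 49 lower other hosts, 0 to 8 higher and 0 to 6 lower snoRNP genes, and 0 to 4 higher and 2 to 8 lower TOP translation genes. The host median ranged from -0.03 to 0.46. Without sh-SAPCD2 replicate 2, 9 hosts turned below 0, none of them a host that passed. Their ranges were -0.19 to 0.37 for SNHG6, -0.03 to 0.32 for EPB41L4A-AS1, -0.24 to 0.52 for SNHG32, -0.01 to 0.82 for SNHG8, -0.94 to 0.98 for SNHG25, -0.42 to 0.84 for SNHG21, -0.05 to 0.30 for SNHG17, -0.10 to 0.30 for SNHG10 and -0.04 to 0.57 for SNHG9. ZFAS1 moved from 0.00 to -0.13 without that library and to 0.12 without sh-SAPCD2 replicate 1, past the threshold in both fits. Pyrimidine runs beginning within 2 bases of the start were found in 7 hosts (25.9%), 11.1% of all tested genes and 79.7% of ribosomal protein genes, and runs at RefSeq starts in 13 of 29 entries. Hosts near 1 CPM rest on few counts, and depth limits what can be seen there.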
